A study of Mus musculus with 6 samples.

Results

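The FoxO transcription factors and the upstream insulin and IGF signalling genes tied to stem cell quiescence are described here in RNA pulled down from mouse neural progenitor cells. The 10 genes were taken from a list: the FoxO factors Foxo1, Foxo3, Foxo4 and Foxo6, the receptors Igf1r and Insr, the adaptors Irs1 and Irs2, and the modulators Pik3ip1 and Tsc22d3. All 10 matched 1 gene ID each among the 55416 in the table, and 9 of them had enough counts to be among the 12477 tested genes. Foxo6 did not.

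The cells came from embryonic brain and were kept quiescent in culture with FGF2 (10 ng/ml) and Bmp4 (20 ng/ml), in the EU and the PBS group alike. EU cells received 5-ethynyluridine (250 µM), a uridine analogue that enters new transcripts, on day 1 after quiescence began, and were harvested on day 8, 7 days later. The PBS group received the vehicle, and its RNA went through the same biotin coupling and streptavidin pulldown without the analogue. Each group had 3 libraries, and the comparison asks which transcripts took a larger share of the EU pulldown than of the PBS pulldown at harvest. Counts are scaled to library size, so the folds do not measure how much RNA was recovered above the PBS pulldown. A log2 fold that is not positive means an equal or smaller share of the library, not a lower yield. No allele, strain or animal age is given, and nothing says that the 3 libraries of a group came from different cultures. The p-values therefore cover library-to-library spread, which may be technical.

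Insulin and IGF1 bind receptor tyrosine kinases at the cell surface, and the receptors phosphorylate the adaptors Irs1 and Irs2, which recruit PI3K. PI3K signalling activates the kinase Akt, and Akt phosphorylates FoxO proteins, which then bind 14-3-3 proteins and leave the nucleus. With little growth factor signal, FoxO proteins stay nuclear and switch on genes of cell cycle arrest, stress defence and autophagy. In the mouse brain, FoxO factors are known to keep adult neural stem cells from being used up.

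Reads of related genes could be mixed up where their transcripts are identical, so the longest identical coding stretch is shown for 4 such pairs. Letters are from the longest protein-coding GENCODE transcript of each gene, 5′ to 3′, positions count from the first coding base, and capitals mark uridines, the positions that EU can take.
Foxo3 568 to 605 and Foxo1 571 to 608: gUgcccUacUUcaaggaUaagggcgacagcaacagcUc
Foxo4 529 to 548 and Foxo6 490 to 509: UggUggaUgcUgaaccccga
Irs2 750 to 770 and Irs1 642 to 662: cUUcUUcUUcaUcgaggUggg
Igf1r 1633 to 1651 and Insr 1651 to 1669: UgUggcUccaacagcUgga
The Foxo3 and Foxo1 stretch was 38 bases long, that of Foxo4 and Foxo6 20, that of Irs2 and Irs1 21 and that of Igf1r and Insr 19. Of the 50-base words of each longest coding transcript, 1.04% in Tsc22d3, 0.322% in Insr and 0.07% in Foxo1 also occurred in transcripts of other genes, and none did in the other 7. Genes on the opposite strand overlap exons of Irs1, Foxo1, Irs2 and Pik3ip1. Their own counts were 0 to 14 per library, apart from Gm12592 beside Pik3ip1 with 43, 73 and 97 in the EU and 5, 1 and 0 in the PBS libraries. No strand setting is given for the counting, and reads of such neighbours cannot be told apart from those of the member.

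Uridine content differed between the members. The 60-base coding windows with the most and the fewest uridines in the whole set lie in Insr and Irs2.
Insr 2845 to 2904: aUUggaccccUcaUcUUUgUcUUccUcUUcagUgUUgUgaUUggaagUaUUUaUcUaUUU
Irs2 1078 to 1137: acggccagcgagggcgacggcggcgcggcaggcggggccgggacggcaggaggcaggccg
The Insr window held 28 uridines and the Irs2 window 0. Over whole transcripts, uridine made up 28.7% of Tsc22d3, 27.6% of Insr and 26.6% of Foxo1, against a median of 24.8% over all tested genes. Foxo3 stood at 23.9%, Foxo4 at 21.9%, Irs2 at 21.7% and Foxo6 at 15.4%. The transcripts ran from 1974 bases in Tsc22d3 to 11409 in Igf1r, where the median tested gene had 3223.

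EU libraries held 9564856 to 26479031 counts and PBS libraries 413181 to 729649, so 1 count was worth 0.0353 to 0.127 CPM (read counts scaled to library size with TMM composition factors) in EU and 1.29 to 2.13 CPM in PBS. Among markers of other cell types, 5 of 6 microglial genes had no count in any library (summed 0 CPM in EU, at most 1.59 CPM in PBS), and vascular and fibroblast genes summed to 4.43 to 6.03 CPM in EU and 0 to 15.9 CPM in PBS, with Cldn5 and Col3a1 at 0. All 8 progenitor markers were detected in both groups, and they summed to 2606 to 3468 CPM in EU and 2730 to 3516 CPM in PBS. The 6 astrocyte markers were detected too, at a summed 5240 to 9184 CPM in EU and 8141 to 14673 CPM in PBS. Of these Gfap, at 685, 79.1 and 274 CPM in EU and 7440, 1848 and 1589 CPM in PBS (edgeR adjusted p = 0.103), and Aqp4, at 489 to 847 CPM in EU and 1042 to 1914 CPM in PBS, were the 2 with all EU libraries below PBS. The other 4 overlapped between groups, with log2 folds of -0.02 in Slc1a3, 0.21 in Aldh1l1, 0.36 in Slc1a2 and 0.92 in Gjb6, and the median of the 6 was 0.10. The 6 neuron markers summed to 538 to 665 CPM in EU and 559 to 803 CPM in PBS, mostly from Map2 (571 CPM on average in EU and 557.5 CPM in PBS), with Dcx at 14.3 to 53.4 CPM in EU and 14.2 to 238 CPM in PBS and Snap25 at or below 1.39 CPM. The 6 oligodendrocyte lineage markers summed to 313 to 427 CPM in EU and 200.3 to 286 CPM in PBS, mostly from Olig2 (238 CPM on average in EU and 166 CPM in PBS), and Mog had 1 count in all. The part of these cell types in the results was not tested. In such bulk pulldowns fewer cells of a type, less RNA per cell and a smaller part of that RNA pulled down cannot be told apart.

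None of the 9 tested members passed the test across all genes (edgeR quasi-likelihood, Benjamini-Hochberg adjusted p below 0.05), where 0% of all tested genes were called higher in EU and 0.024% lower. Foxo3 came closest, at 2.60 times its PBS level. The fold was positive in 8 of the 9, beside 56.5% of all tested genes. At an unadjusted p below 0.05, 3 members were higher in EU, Foxo3, Insr and Foxo1, against 12.6% of all tested genes. In 4 members, those 3 and Tsc22d3, all EU libraries lay above all PBS libraries, as they did in 21.8% of all tested genes. The median log2 fold was 0.52 over the 9 members and 0.15 over all tested genes. Without a low-count filter the order turned, to 0.66 over these 9 members and 1.23 over 27659 genes.

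**Figure D1:**
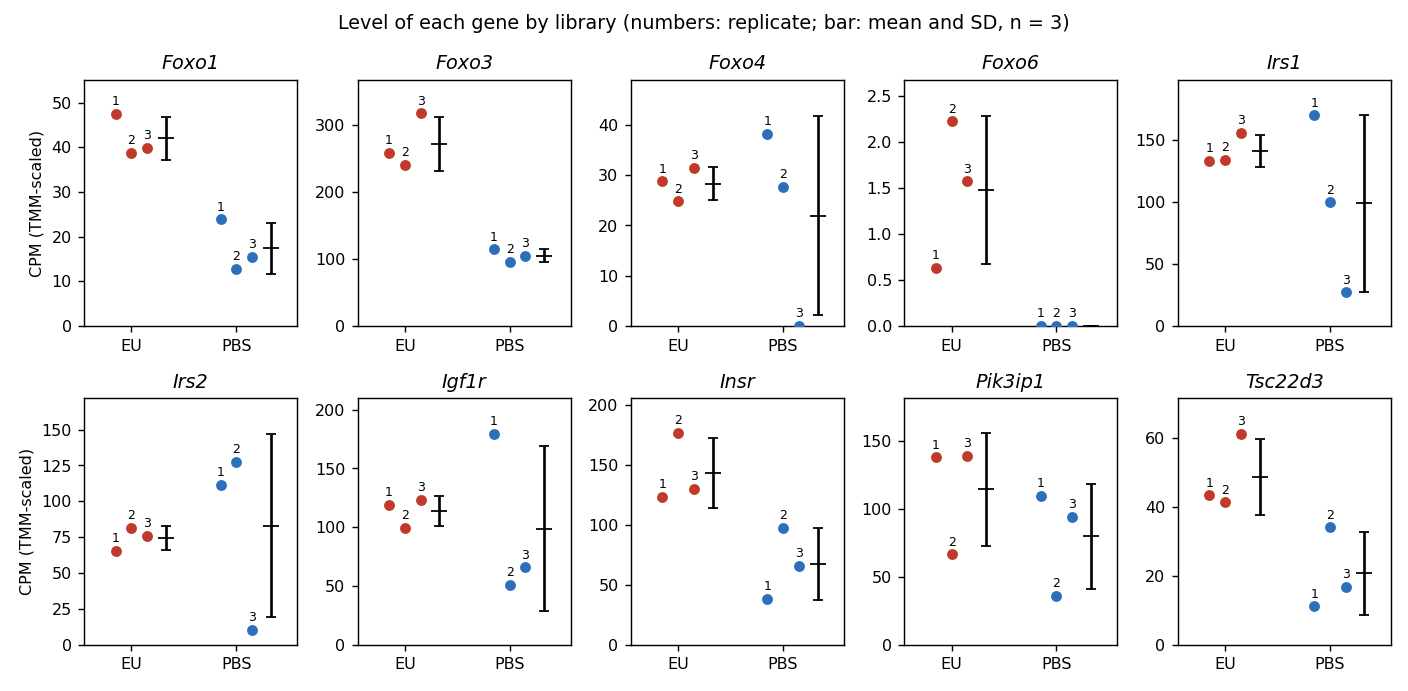
CPM (scaled by TMM factors) of each member in each library, EU in red on the left and PBS in blue on the right of each panel, with replicate numbers beside the points and the mean and SD (n = 3) as a black bar. EU points lie close together and apart from PBS in Foxo3 and Foxo1, whereas PBS points spread from 10.3 to 127.6 CPM in Irs2.

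Among the FoxO factors, Foxo3 is the member best known for holding neural and blood stem cells in quiescence in the mouse. Foxo3 had 2039, 6833 and 6871 counts in EU replicates 1 to 3 and 72, 45 and 81 in PBS replicates 1 to 3. Scaled to CPM it measured 258, 241 and 317 in the EU and 114, 95.7 and 104.3 in the PBS libraries. The groups stood clearly apart, with every EU library at least 2.11 times above every PBS library. The means were 272 ± 40.1 CPM in EU against 105 ± 9.40 CPM in PBS (SD, n = 3 each), a log2 fold of 1.37 ± 0.24 (SE, unadjusted p = 3.6e-04, edgeR adjusted p = 0.103). Among tested genes with a positive fold, 8 had a smaller unadjusted p. The coefficient of variation of Foxo3 in PBS was 8.97%, below the 12.3% that counting alone would give, and in no other tested member was it smaller in PBS than in EU. Foxo3 was also the only member called in any of 14 alternative settings, and its adjusted p ran from 3.7e-06 to 0.278 over them. DESeq2 called it higher (adjusted p = 3.7e-06), where 4.06% of all tested genes were called higher and 3.51% lower. Without a low-count filter 0.296% were called higher, Foxo3 among them, and 0.947% lower. A replicate block called 1.15% higher, Foxo3 included, and limma-voom 1.78%, without it.

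Foxo1, a FoxO factor known for its role in insulin-controlled glucose metabolism, was the next FoxO gene by fold. It measured 47.5, 38.7 and 39.8 CPM in the EU libraries and 23.8, 12.8 and 15.5 CPM in the PBS libraries. All EU values exceeded all PBS values, yet the PBS values rest on 15, 6 and 12 counts. The means were 42.0 ± 4.75 CPM in EU against 17.4 ± 5.78 CPM in PBS (SD, n = 3 each; log2 fold 1.27 ± 0.51 SE, edgeR adjusted p = 0.248). Its PBS coefficient of variation, 33.3%, was close to the 30.2% from counting.

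Foxo4, an X-linked FoxO factor, showed overlapping groups at 28.7, 24.8 and 31.4 CPM in EU and 38.2, 27.6 and 0 CPM in PBS. PBS replicate 3 had no count, which allows up to 3.86 CPM at a limit of 3 counts. The log2 fold was 0.39 ± 1.05 (SE; edgeR adjusted p = 0.917) and became -0.22 without PBS replicate 3. Foxo6, a FoxO factor that is expressed in brain and known to stay largely nuclear, had 5, 63 and 34 counts in EU (0.633, 2.22 and 1.57 CPM) and none in PBS. Since 3 counts over the PBS group are worth 1.599 CPM, above its EU mean of 1.48 CPM, a difference in Foxo6 was not detectable at this depth and no fold is given.

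The ratio of Foxo3 to Foxo1 counts within a library needs no scaling factor, and its means in the pulldowns differed by less than the spread between libraries. Foxo3 took 84.5%, 86.2% and 88.9% of the counts of both genes in the EU libraries and 82.8%, 88.2% and 87.1% in the PBS libraries. The EU values lie within the 95% exact binomial interval of every PBS library, such as 73.2% to 90.0% in PBS replicate 1. The mean log2 ratio was 2.69 ± 0.28 in EU and 2.64 ± 0.34 in PBS (SD, n = 3 each; EU minus PBS 0.05, exact two-sided permutation p = 0.9, adjusted over 3 ratios 0.9). The smallest p that 3 against 3 libraries allow is 0.1, and counting intervals cover counting error only.

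**Figure D2:**
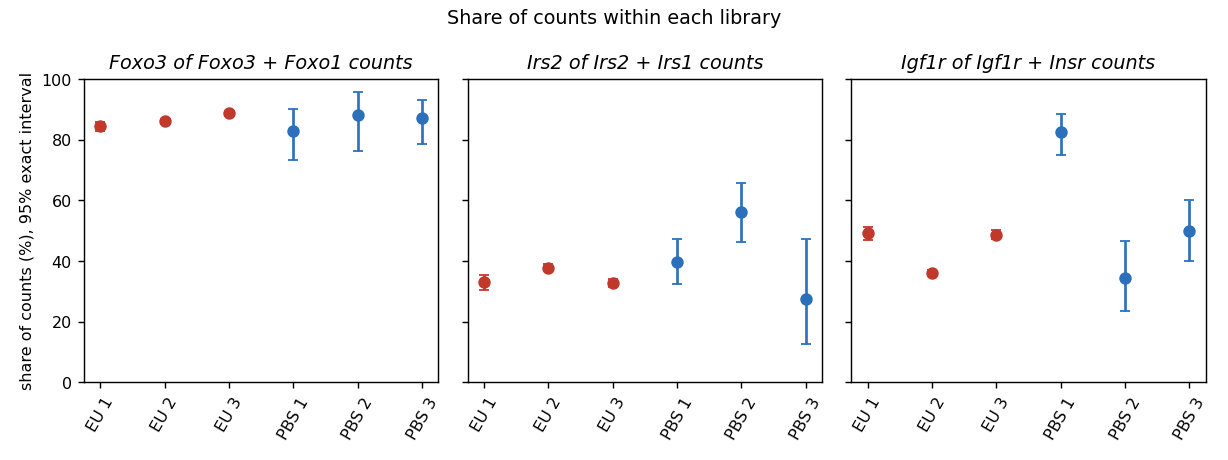
Share of counts taken by the first gene of each pair within each library (%), EU in red on the left and PBS in blue on the right, with 95% exact binomial intervals. Foxo3 took 82.8% to 88.9% of Foxo3 and Foxo1 counts in all 6 libraries, whereas the Igf1r share of Igf1r and Insr counts was 82.5% in PBS replicate 1 and 34.3% in PBS replicate 2.

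Of the receptors, Insr, which binds insulin, measured 124, 177 and 130.0 CPM in the EU libraries and 38.2, 97.8 and 65.7 CPM in the PBS libraries. The groups did not overlap, and the lowest EU library lay 1.26 times above the highest PBS library. The means were 143 ± 29.0 CPM in EU against 67.2 ± 29.9 CPM in PBS (SD, n = 3 each; log2 fold 1.11 ± 0.38 SE, edgeR adjusted p = 0.177). Igf1r, the closely related receptor for IGF1, measured 119, 99.6 and 123 CPM in EU and 179.6, 51.0 and 65.7 CPM in PBS. Its groups overlapped because PBS replicate 1 was above all EU libraries (log2 fold 0.20 ± 0.46 SE, edgeR adjusted p = 0.898). Without PBS replicate 1 the log2 fold of Igf1r was 0.97, without PBS replicate 2 -0.10 and without PBS replicate 3 -0.03.

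The balance of the receptors varied most between PBS libraries. Igf1r took 49.1%, 36.0% and 48.7% of the counts of both receptors in the EU libraries. In PBS its share was 82.5% (95% exact interval 75.1% to 88.4%), 34.3% (23.3% to 46.6%) in replicates 1 and 2, and replicate 3 held 51 counts of each receptor (39.9% to 60.1%). PBS replicate 1 thus stood apart from the other PBS libraries beyond counting error. The mean log2 ratio of Igf1r to Insr was -0.32 ± 0.44 in EU and 0.43 ± 1.63 in PBS (SD, n = 3 each; EU minus PBS -0.75, exact permutation p = 0.7, adjusted 0.9), and the difference was 0.15 without PBS replicate 1.

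The adaptors showed the widest PBS spread among members with more than 100 PBS counts. Irs1, the adaptor that links both receptors to PI3K, measured 133, 134 and 156 CPM in EU and 170.1, 99.9 and 27.0 CPM in PBS. Irs2, its paralogue and a known FoxO target in liver, measured 65.3, 81.5 and 76.0 CPM in EU and 111, 127.6 and 10.3 CPM in PBS. In both genes the 3 EU libraries lay inside the range of the PBS libraries. The coefficient of variation of Irs1 was 9.24% in EU and 72.2% in PBS, and that of Irs2 11.1% in EU and 76.5% in PBS. Counting alone gives 13.1% for Irs1 and 14.7% for Irs2 in PBS. The log2 fold was 0.52 ± 0.55 for Irs1 (SE; edgeR adjusted p = 0.739; 1.22 without PBS replicate 1, 0.06 without PBS replicate 3) and -0.14 ± 0.70 for Irs2 (adjusted p = 0.955). Irs2 changed sign without PBS replicate 1 (0.18) or PBS replicate 2 (0.31). Irs2 took 32.9%, 37.8% and 32.7% of the counts of both adaptors in EU and 39.5%, 56.1% and 27.6% in PBS (log2 ratio, EU minus PBS -0.38, exact permutation p = 0.6, adjusted 0.9).

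Among the modulators, Tsc22d3, a leucine zipper protein induced by glucocorticoids, measured 43.3, 41.3 and 61.1 CPM in EU and 11.1, 34.0 and 16.7 CPM in PBS. Its groups did not overlap, but the PBS values stand on 7, 16 and 13 counts. The means were 48.6 ± 10.9 CPM in EU against 20.6 ± 11.9 CPM in PBS (SD, n = 3 each; log2 fold 1.26 ± 0.55 SE, edgeR adjusted p = 0.301). Pik3ip1, a membrane protein that inhibits the catalytic subunit of PI3K, measured 138, 66.6 and 139 CPM in EU and 109.7, 36.1 and 94.0 CPM in PBS. In either group replicate 2 was the lowest, and the groups overlapped (log2 fold 0.50 ± 0.47 SE, edgeR adjusted p = 0.689).

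**Figure D3:**
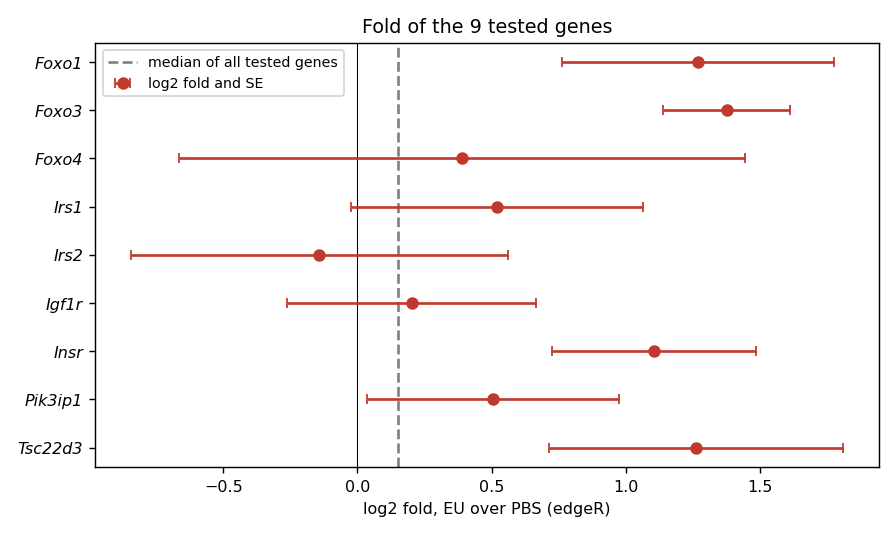
Log2 fold of EU over PBS with its SE for the 9 tested members (edgeR), with the median of all tested genes as a dashed line at 0.15. Foxo3, at 1.37 ± 0.24, has the smallest error and Foxo4, at 0.39 ± 1.05, the largest.

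Per length, Foxo3 and Pik3ip1 were the most abundant members in both pulldowns. Levels per kilobase of exonic length were 35.9 ± 5.30 CPM in EU and 13.8 ± 1.24 CPM in PBS for Foxo3, and 26.8 ± 9.73 CPM in EU and 18.7 ± 9.07 CPM in PBS for Pik3ip1 (SD, n = 3 each). In EU, Irs1 (15.4), Irs2 (11.7), Tsc22d3 (11.2), Insr (10.4), Foxo4 (8.12), Igf1r (6.79), Foxo1 (4.85) and Foxo6 (0.564 CPM per kilobase) followed. Library ranges of neighbours in that EU order overlapped except between Irs1 and Irs2, between Igf1r and Foxo1 and between Foxo1 and Foxo6. In PBS the ranges of neighbours overlapped at every step above Foxo1. On the length of the longest coding transcript, Pik3ip1 came before Foxo3 in EU, at 44.5 and 39.7 CPM per kilobase, and Tsc22d3 came to place 3 at 24.6. Of the FoxO level per kilobase, Foxo3 made up 70.9%, 71.9% and 74.7% in EU and 52.5%, 57.3% and 88.5% in PBS. The high PBS value is that of PBS replicate 3, in which Foxo4 had no count.

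**Figure D4:**
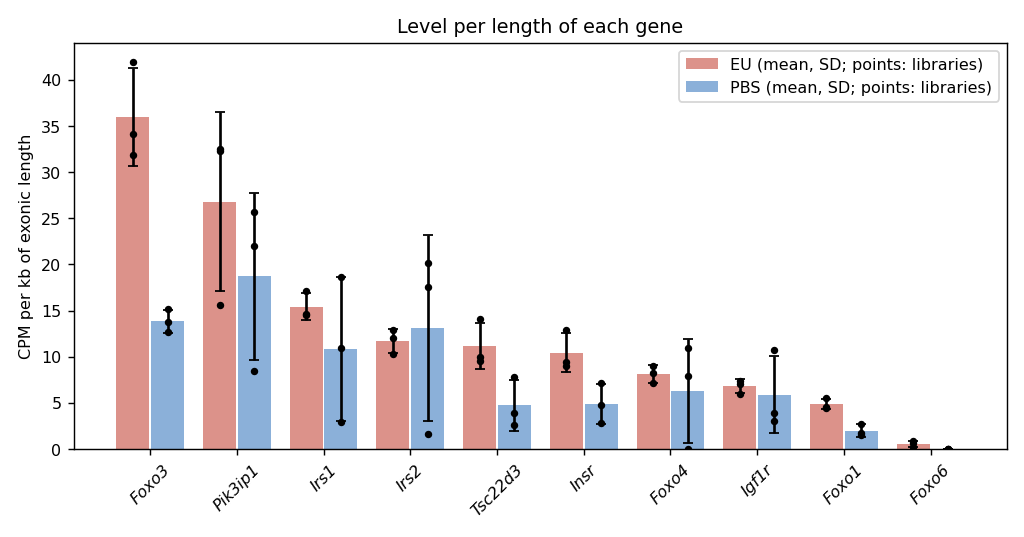
Level of each member in CPM per kilobase of exonic length, EU bars in red left of PBS bars in blue, with the SD (n = 3) and 1 point per library. Foxo3 leads in EU at 35.9, and Foxo6 is lowest at 0.564.

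Foxo3 and Foxo1 had similar profiles over the 6 libraries. The root mean square difference of their log2 CPM, each centred on its own mean, was 0.25. Of 3424 tested genes averaging at least 50 CPM, 18 were closer to Foxo3, a count that includes Foxo3 itself. Foxo1 itself averaged less than 50 CPM and had 15, 6 and 12 counts in PBS. The measure includes the step between the groups, with log2 folds of 1.37 in Foxo3 and 1.27 in Foxo1. The other members lay farther away, at 0.54 for Insr and Tsc22d3, 0.65 for Pik3ip1, 0.68 for Igf1r, 0.81 for Irs1, 1.26 for Irs2 and 2.49 for Foxo4. The genes nearest to Foxo3 were Fryl (0.11), Zhx3 (0.11), Pcdhgc3 (0.12), Fasn (0.17) and Wnk2 (0.19). Each had all EU libraries above all PBS libraries, such as Zhx3 at 581 ± 59.0 CPM in EU against 253 ± 16.7 CPM in PBS (SD, n = 3 each, edgeR adjusted p = 0.103). This follows from choosing them by their likeness to Foxo3, whose own groups stood apart, and is no separate result.

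In the rest of the pathway, 121 of 146 listed genes were tested and none passed in either direction. At an unadjusted p below 0.05, 15 were higher in EU and 3 lower, beside 12.6% higher and 4.03% lower over all tested genes. Among the 15, Pik3cb, Sgk1, Deptor and Foxc1 had no PBS count. Such genes entered the test through the EU libraries alone and could only be higher, and the shares over all tested genes include them. All EU libraries lay above all PBS libraries in 30 and below in 7, beside 21.8% and 6.4% of all tested genes. The median log2 fold was 0.19 over these genes, also with genes lacking PBS counts set at their lower bound.

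The IGF axis was represented by binding proteins rather than ligands. Ins1 and Ins2 had no count in any library, and Igf1 and Igf2 had 18 and 3 counts over all EU libraries and none in PBS, too few for a comparison. Of 14 genes in this list 5 were tested, and 4 of the 5 had an unadjusted p below 0.05 and EU libraries all above PBS. Over all tested genes, 12.6% were higher at that p and 21.8% had EU libraries all above PBS. Igfbp3, the main IGF carrier of blood plasma, measured 69.6, 617 and 257 CPM in EU and 55.6, 65.9 and 65.7 CPM in PBS (log2 fold 2.34 ± 0.69 SE, edgeR adjusted p = 0.123). Igfbp4, an inhibitor of IGF action, measured 42.4, 154 and 84.6 CPM in EU and 33.4, 12.8 and 3.86 CPM in PBS (edgeR adjusted p = 0.137), on 21, 6 and 3 PBS counts. Igfbp5, the fifth tested gene and the most abundant of the list in PBS, went the other way without passing the test, at 461, 73.4 and 220.3 CPM in EU and 1428, 399.7 and 350.2 CPM in PBS (log2 fold -1.53 ± 0.73 SE, edgeR adjusted p = 0.357). Igfbp5 was named after its values were seen. Igfbp3 and Igfbp4 were highest in EU replicate 2 and lowest in EU replicate 1, and the EU mean of Igfbp3 rests mostly on replicate 2. Igfbp2 averaged 370.2 ± 75.6 CPM in EU and 188 ± 69.0 CPM in PBS, and Igf2r, a receptor that clears IGF2, 55.4 ± 4.97 CPM in EU against 24.6 ± 4.59 in PBS (SD, n = 3 each; edgeR adjusted p = 0.140 and 0.184).

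Among adaptors and receptor regulators 1 of 15 tested genes had an unadjusted p below 0.05, beside 12.6% higher and 4.03% lower over all tested genes. This was Cbl, a ubiquitin ligase for activated receptors, at 229 ± 14.1 CPM in EU against 149.8 ± 24.8 CPM in PBS (SD, n = 3 each; log2 fold 0.61 ± 0.23 SE, edgeR adjusted p = 0.224). Sh2b1 and Sos2 had separated groups, and Socs1 stood on 1 PBS count (edgeR adjusted p = 0.370, 0.371 and 0.395).

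In the PI3K and Akt list 4 of 20 tested genes were higher and 1 lower at an unadjusted p below 0.05. The shares over all tested genes were 12.6% and 4.03%. Pik3r1, a regulatory subunit of PI3K, was lower in every EU library than in any PBS library, at 461, 329 and 509 CPM in EU and 634, 739.9 and 606 CPM in PBS (log2 fold -0.61 ± 0.23 SE, edgeR adjusted p = 0.218). Pik3r2, another regulatory subunit, went the other way, at 82.1, 75.6 and 93.5 CPM in EU and 58.8, 51.0 and 56.7 CPM in PBS (log2 fold 0.59 ± 0.30 SE, edgeR adjusted p = 0.396). Groups overlapped in Pik3r3 (log2 fold -0.10). Pik3r2 and Pik3r3 were named after their values were seen. Gsk3b, a kinase held inactive by Akt, measured 375, 380.2 and 401 CPM in EU and 267, 168 and 270.4 CPM in PBS (log2 fold 0.71 ± 0.24 SE, edgeR adjusted p = 0.174). Pik3cb, a catalytic PI3K subunit, and Sgk1, an Akt-related kinase, had no PBS count. Their EU means of 9.84 ± 1.68 and 16.7 ± 13.5 CPM (SD, n = 3) were 6.15 and 10.5 times the floor of 3 counts over the PBS group (edgeR adjusted p = 0.103 and 0.109). Such a lower bound covers counting error only. PBS libraries varied beyond that in other genes, such as Foxo4 with 24, 13 and 0 PBS counts. Sgk1 measured 7.97, 32.2 and 10.0 CPM in EU, and without EU replicate 2 its bound was 5.63-fold. With fewer PBS counts the floor itself is higher, and without PBS replicate 1 or PBS replicate 3 the bound was 4.09-fold or 3.61-fold for Pik3cb and 6.96-fold or 6.14-fold for Sgk1.

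In the mTOR branch 2 of 16 tested genes were higher and 1 lower at an unadjusted p below 0.05. Of all tested genes 12.6% were higher and 4.03% lower. Mlst8, a subunit shared by both mTOR complexes, measured 24.9, 24.9 and 21.4 CPM in EU and 68.4, 55.3 and 52.8 CPM in PBS. Its groups stood apart with EU below (log2 fold -1.31 ± 0.40 SE, edgeR adjusted p = 0.129). Deptor, an mTOR inhibitor, had no PBS count and a mean of 4.49 ± 0.606 CPM in EU (SD, n = 3, edgeR adjusted p = 0.103). That mean was 2.81 times the floor, a bound for counting error only (1.86-fold without PBS replicate 1, 1.64-fold without PBS replicate 3). The translation repressor Eif4ebp2 averaged 321 ± 36.2 CPM in EU and 224 ± 34.2 CPM in PBS, and Eif4ebp1 9.499 ± 4.38 CPM in EU against 1.29 ± 2.23 in PBS (SD, n = 3 each; edgeR adjusted p = 0.299 and 0.356).

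Regulators of FoxO proteins were mixed, with 1 of 20 tested genes higher and 1 lower at an unadjusted p below 0.05. This compares with 12.6% and 4.03% of all tested genes. Ywhae, a 14-3-3 protein, measured 727, 642 and 673 CPM in EU and 1261, 897 and 834 CPM in PBS (log2 fold -0.55 ± 0.21 SE, edgeR adjusted p = 0.237). Stub1, a ubiquitin ligase, measured 36.9, 56.3 and 45.3 CPM in EU and 23.8, 21.3 and 10.3 CPM in PBS (edgeR adjusted p = 0.241), on 15, 10 and 8 PBS counts. Groups overlapped in the acetyltransferase gene Ep300 and stood apart in the low-count ubiquitin ligase gene Skp2 (edgeR adjusted p = 0.40 and 0.415).

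Known FoxO target genes had a median log2 fold of -0.13, beside 0.15 over all tested genes. The list pools genes that FoxO factors switch on with genes that they repress, so its median is no measure of FoxO activity. Of 32 tested genes 15 were positive and 2 higher at an unadjusted p below 0.05, beside 56.5% and 12.6% of all tested genes. Sesn2, a stress-induced inhibitor of mTOR signalling, measured 138, 133 and 159 CPM in EU and 33.4, 53.2 and 78.5 CPM in PBS. Its groups stood apart (log2 fold 1.37 ± 0.36 SE, edgeR adjusted p = 0.103). Ccnd2, a cyclin of the G1 phase that FoxO factors repress, measured 732, 4000.2 and 1152 CPM in EU and 138, 853 and 353 CPM in PBS (edgeR adjusted p = 0.209), and in either group replicate 2 was the highest. Fbxo32, a muscle atrophy ubiquitin ligase, averaged 36.6 ± 14.3 CPM in EU and 74.1 ± 28.3 CPM in PBS, and Trp53inp1, an autophagy and cell death gene, 176 ± 20.3 CPM in EU against 107 ± 48.9 in PBS (SD, n = 3 each; edgeR adjusted p = 0.333 and 0.344).

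Other forkhead genes had 10 of 13 tested members positive, beside 56.5% of all tested genes. At an unadjusted p below 0.05, 1 of the 13 was higher, beside 12.6% of all tested genes. That gene was Foxc1, known for mesenchymal and meningeal development, with no PBS count and 24.8, 42.6 and 28.0 CPM in EU (edgeR adjusted p = 0.103). Its EU mean was 19.9 times the floor, a bound for counting error only (13.2-fold without PBS replicate 1, 11.7-fold without PBS replicate 3). Foxk2 averaged 79.0 ± 18.5 CPM in EU against 42.8 ± 22.1 in PBS (SD, n = 3 each; edgeR adjusted p = 0.367). Foxm1, a factor of dividing cells, measured 26.2, 90.2 and 26.6 CPM in EU and 22.3, 0 and 18.0 CPM in PBS (edgeR adjusted p = 0.439).

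**Figure D5:**
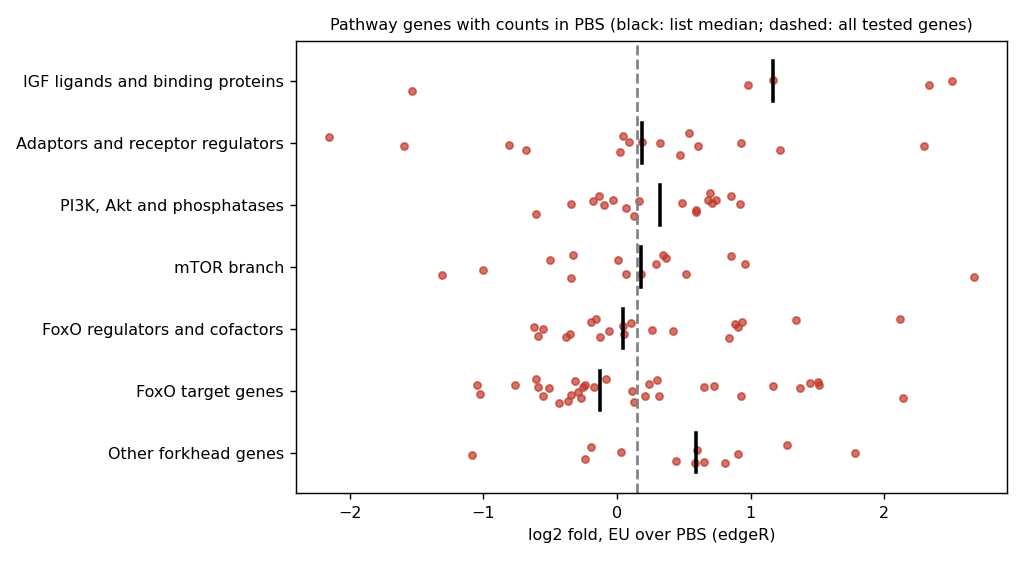
Log2 fold of EU over PBS (edgeR) of the 117 tested pathway genes that had a count in PBS, 1 row per list, with list medians in black and the median of all tested genes dashed at 0.15. Points of every list fall on both sides of the dashed line, and the FoxO target genes have a median of -0.13.

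EU replicate 2 stood apart from the other EU libraries in several of these genes. It was the lowest EU library in 6 of 9 tested members and the highest in 2, beside 38.5% and 43.7% of all tested genes. Pik3ip1 measured 66.6 CPM there (95% Poisson interval 63.6 to 69.6) and 138 and 139 CPM in EU replicates 1 and 3, while Insr measured 177 CPM (172 to 182) against 124 and 130.0 CPM. Mki67, a marker of dividing cells, measured 96.7, 438 and 95.6 CPM in EU replicates 1 to 3 and 25.4, 93.6 and 32.2 CPM in PBS replicates 1 to 3. Top2a and Ccnb1, also genes of dividing cells, were highest in EU replicate 2 as well (72.1, 317 and 79.0 CPM, and 14.2, 44.0 and 17.2 CPM). In PBS, Top2a measured 39.7, 82.9 and 74.7 CPM, and Ccnb1 went the other way at 4.77, 0 and 10.3 CPM (3, 0 and 8 counts). Among FoxO target genes EU replicate 2 was the lowest in 17 of 32, such as the mTOR inhibitor gene Sesn3 (1448, 776 and 1456 CPM in EU and 1383, 935.5 and 1095 CPM in PBS) and Txnip, which encodes a thioredoxin-binding protein (192, 66.9 and 144 CPM in EU and 181, 78.7 and 108 CPM in PBS). Mki67, Top2a, Ccnb1, Sesn3 and Txnip were chosen after their values were seen. The part of dividing cells in these differences was not tested. Without EU replicate 2 the log2 fold of Foxo3 was 1.46 (edgeR adjusted p = 0.177) and no member passed.

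Median folds varied little with uridine content over all genes. Over 3418 tested genes averaging at least 50 CPM, the median log2 fold was 0.20, 0.09, 0.05 and 0.06 from the quartile with the least uridine to that with the most (Spearman correlation across genes -0.10, and 0.28 for transcript length). These genes share the same 6 libraries and are not independent. Among the members, the 3 transcripts richest in uridine, Tsc22d3, Insr and Foxo1, had log2 folds of 1.26, 1.11 and 1.27. Igf1r and Irs1, next at 25.8% and 25.5% uridine, had 0.20 and 0.52, and Foxo3, at 23.9%, had 1.37. Pik3ip1, Foxo4 and Irs2, with less uridine, had 0.50, 0.39 and -0.14. The transcripts of Foxo1, Foxo3, Irs1, Irs2, Igf1r and Insr were longer than those of 87.0% to 98.5% of tested genes. The part of length in the folds was not tested.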

How the data were processed

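RNA pulldowns of 3 EU and 3 PBS libraries were compared. The authors deposited raw read counts per Ensembl gene ID, with no normalization and 0 columns of other samples. Per the submitters' processing notes, the build was GRCm39, and the tools included featureCounts 2.0.1, STAR 2.7.10b, UMI-tools 1.1.2 and bcl2fastq 2.20.0, with no roles named. How strand and multiply matching reads were handled is not given in the sources. Symbols, lengths and transcript letters came from GENCODE M21, which uses an earlier build, so no genome coordinates are given. Of 55416 IDs, 52083 had a symbol.

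Counts were tested with edgeR 4.0.16 (R 4.3.3, filterByExpr, TMM, robust quasi-likelihood fit, group as the only term). A check on simulated counts gave all libraries the spread of the EU libraries and placed changes only in well-counted genes. It does not cover the wider PBS spread of most members or genes with few PBS counts. CPM are TMM-scaled. Alternatives were other scalings and filters, a replicate block, leaving out each library (same genes tested), DESeq2 1.42.0 and limma-voom (limma 3.58.1). Medians of lists and of members are descriptions. Named pathway genes are the 4 of each of 7 lists with the smallest p, and the 5 genes nearest to Foxo3; 1 of the pathway genes is not reported here. The members and lists were chosen with earlier results of these data known.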

Additional observations from a re-analysis of the deposited data

How the results depend on the processing

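Over the 14 alternatives no member was called lower in EU, and Foxo3 was the only member called higher, without a low-count filter (log2 fold 1.52, edgeR adjusted p = 0.0193), with the replicate block (1.37, 0.0046) and by DESeq2 (1.27, 3.7e-06), 1 member in each. In limma-voom its adjusted p was 0.278. The cause was not tested. Calls over all genes, 0 higher and 3 lower, became 3 and 34 with library size alone, 82 and 262 without a low-count filter, 144 and 50 with the replicate block, 506 and 438 in DESeq2 and 222 and 25 in limma-voom. Leaving out 1 library gave 0 higher and 0 to 10 lower (10 without EU replicate 1, 1 without EU replicate 2, 0 without any 1 PBS library). Of the 146 pathway genes, 0 passed in the main setting. Without a filter 2 were called higher (Foxc1, Igfbp3), with the replicate block 5 higher (Ccnd2, Foxc1, Igfbp2, Igfbp3, Igfbp4) and 1 lower (Igfbp5), in DESeq2 7 higher (Foxc1, Igf2r, Igfbp3, Igfbp4, Pik3cb, Sesn2, Sgk1) and 3 lower (Mlst8, Pik3r1, Ywhae) and in limma-voom 3 higher (Foxc1, Pik3cb, Sgk1).

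The sign of 3 members turned. With 1 library left out the log2 fold ran from -0.22 (without PBS replicate 3) to 1.18 for Foxo4, from -0.68 to 0.31 for Irs2 and from -0.10 to 0.97 for Igf1r. That of Igf1r was -0.10 and -0.03 without PBS replicate 2 and PBS replicate 3, and that of Irs2 was 0.0017 without a filter, 0.25 with the replicate block, 0.68 in limma-voom and 0.18 and 0.31 without PBS replicate 1 and PBS replicate 2. Foxo1, Foxo3, Irs1, Insr, Pik3ip1 and Tsc22d3 stayed positive in all 14. The difference of log2 count ratios ran from -0.14 to 0.18 for Foxo3 over Foxo1 when 1 library was left out (-0.10 without EU replicate 3, -0.14 without PBS replicate 1), from -0.80 to 0.074 for Irs2 over Irs1 (0.074 without PBS replicate 2) and from -1.44 to 0.15 for Igf1r over Insr. The median log2 fold of all genes moved by -0.17 with library size alone, 1.08 without a low-count filter (27659 genes tested), 0.39 with the replicate block and 0.37 in limma-voom, and by -0.12 to 0.11 in the other 10 settings. Without the filter the median of the 9 members, 0.66, lay below the 1.23 of all genes, and in the main and the other 13 settings it lay above. Deviations of equally numbered EU and PBS libraries correlated at 0.07, 0.05 and 0.03 across genes, and every library correlated best with its own number, so the block rests on a shared number and a hint from the data. Leaving out libraries for the lower bounds of Pik3cb, Sgk1, Deptor and Foxc1 was chosen after seeing the data. PBS depth limits Foxo1, Foxo4, Foxo6 and Tsc22d3, which had 0 to 37 counts over all PBS libraries.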

Other observations

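Replicate 2 held the extreme value in the same direction in both pulldowns for several members, a pattern noticed after the values were seen. Of the 6 members averaging at least 50 CPM, Foxo3, Igf1r and Pik3ip1 were lowest in EU replicate 2 and in PBS replicate 2, and Insr and Irs2 were highest in both. Replicate 2 was extreme in the same direction in both groups in 36.8% of the 3424 tested genes at this level, and in opposite directions in 25.9%. This pattern was not tested.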
